A study of Homo sapiens with 6 samples.

Results

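The genes described here are 9 enzymes that make or convert asparagine, aspartate, alanine, glutamine, proline, arginine and cysteine, out of 33900 genes in the table, of which 14178 were tested. They are ASNS, GPT2, GOT1, GLUL, ASS1, PYCR1, ALDH18A1, CTH and CBS, found by gene name, and all 9 passed the filter on low values. They were measured in LX-2, an established cell line made from human hepatic stellate cells, which are the liver cells that lay down collagen when activated. The cells, given as WT, received either recombinant human Sema3C (rhSema3C, a secreted semaphorin) at 300 ng/ml or PBS for 48 h, in 3 samples per group, and had been maintained in DMEM with fetal bovine serum. ASNS was selected on its rise with rhSema3C, and the other enzymes were picked with results of the same contrast known. The values of the 9 enzymes in that contrast are therefore a description. Their calls only mark which of them passed the threshold used for all genes. The other enzymes of the pathways were tested, but their lists were also written with earlier results of these data known. Many of them were named for large changes in this contrast, so their adjusted p-values come after that selection. The line is a single cell line, and a change in the share of cells expressing a gene and a change in RNA per cell cannot be told apart in these bulk libraries.

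Asparagine synthetase moves the amide nitrogen of glutamine onto aspartate, so asparagine draws on the aspartate made by GOT1 and GOT2 and on the glutamine made by GLUL. Proline is built from glutamate by ALDH18A1 and the PYCR enzymes, arginine from citrulline and aspartate by ASS1 and ASL, and cysteine from homocysteine and serine by CBS and CTH. In the liver, glutamine synthetase and the urea cycle are best known from hepatocytes, and proline is an abundant residue of the collagen that stellate cells secrete. ASNS is a textbook target of the transcription factor ATF4, which acts when amino acids are short and binds composite C/EBP-ATF elements.

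RefSeq windows (GRCh38.p14) of 250 bases before to 50 after a transcript start were found for 7 of the 9 enzymes, and GPT2 and PYCR1 had no entry. Both strands were searched for TGATGNAAN, the letters of a C/EBP-ATF composite element, with no other motif searched. Of the 7 enzymes, 2 held a match, ASNS and GOT1. The ASNS element is a known example of this motif, so its match was fixed before the search. Nothing is therefore read from the share among the 7 beside the shares that follow. Of all 86 listed enzymes with a window 5 did (5.81%), and of all 27305 genes with a window 1215 did (4.45%), or 3.61% of the 35116 windows. The 5 stretches are shown because the ASNS element is the classic example of its kind and the letters can be compared with it. Each is read 5′ to 3′ on the strand that shows TGATG, with the match in capitals.
ASNS: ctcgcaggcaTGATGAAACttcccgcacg
GOT1: ctgccgagaaTGATGCAACcaatgcaatt
CHAC1: ctggcaggagTGATGCAACggcaggggag
BCAT1: gtcttcctgcTGATGCAATccgctaggtc
AHCYL2: aaatcagagcTGATGCAAAgtgctgcacc

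The ASNS stretch lies at chr7:97872458-97872486 on the minus strand, with its match 68 to 60 bases before the RefSeq start, and the BCAT1 stretch at chr12:24949131-24949159 on the minus strand. Both are read on the strand of the gene. The other 3 are read against it, GOT1 at chr10:99430805-99430833 (plus strand), CHAC1 at chr15:40953251-40953279 (minus strand) and AHCYL2 at chr7:129368232-129368260 (minus strand). All 5 stretches lie upstream of the RefSeq start used here, but inside an exon and an untranslated region of at least 1 GENCODE 29 transcript of the same gene. The annotations differ here, as the stretches of GOT1 and BCAT1 lie outside the spans that the deposited table gives these genes, which end at 99430624 for GOT1 and 24949101 for BCAT1, while those of ASNS, CHAC1 and AHCYL2 lie inside. The matches are descriptions of letters, not of bound sites. The log2FCs were 3.34 for ASNS, which was picked for its rise, 0.43 for GOT1, 1.67 for CHAC1, 1.02 for BCAT1 and -0.01 for AHCYL2. AHCYL2 was not called, and the others were called higher. Of all genes tested 31.7% were called higher, and of the other listed enzymes tested 37.2%. CTH, CBS and ASS1 held no match and were called higher too, with log2FCs of 1.63, 0.99 and 0.82. GLUL and ALDH18A1 also held none, and GLUL was not called and ALDH18A1 was lower. A link between the matches and the changes was not tested.

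Total counts on genes lay between 68267808 and 89245585 per sample. Counts were scaled with the TMM factors of edgeR and given as CPM, counts per 1e+06 of the scaled library. The groups were compared with its quasi-likelihood test at an adjusted p of 0.05, and the log2 fold change (log2FC) is that of rhSema3C over PBS. Means are given with the SD over the 3 samples of a group (n = 3). A gene called at this threshold was common here: 62.3% of the genes tested were called, 31.7% higher and 30.6% lower with rhSema3C, and in 67.8% every sample of one group lay beyond every sample of the other. Only 5.37% were called with more than a 2-fold difference. The scaling moved this background, since 50.9% of the calls were rises with TMM, 62.3% with library size alone, 61.3% with limma on log2(FPKM + 1) and 74.1% with values rescaled to TPM. Of 10 stellate cell markers, 8 had a mean FPKM of at least 1, COL1A2 and DES lay near 0 (0.130 and 0.00721 FPKM in PBS), and 7 were lower with rhSema3C and none higher. Their summed FPKM was 1521 to 1572 in PBS and 1204 to 1271 in rhSema3C. The hepatocyte markers ALB, APOA1, APOB, TF, FGB and HP were at or near 0, SERPINA1 had 2.78 FPKM in PBS, and the list's sum was 2.64 to 3.19 in PBS and 3.52 to 4.17 in rhSema3C. The sums of the endothelial list were 1.47 to 1.88 and 1.94 to 2.36, and those of the cholangiocyte list 12.4 to 14.7 and 8.60 to 9.31. In the endothelial list VWF, too low to be tested, had a mean of 0.101 FPKM in PBS and 0.659 in rhSema3C, while KDR and TEK were not called. The macrophage list had 95.3 to 104 and 67.5 to 73.2, nearly all of it CD68, with PTPRC near 0 (0.00414 FPKM in PBS). The part of these differences in the results was not tested.

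Of the 9 enzymes, 7 were called higher and 1 lower with rhSema3C, against the background of 31.7% and 30.6%, and 8 had groups that did not overlap, against 67.8%. More than a 2-fold difference was seen in 2 of them, ASNS and CTH, against 5.37%. The median log2FC was 0.48, beside 0.02 over all genes tested. The rule used this contrast, so nothing is read from these counts. The plot of CPM by sample shows the 9 enzymes.

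**Figure D1:**
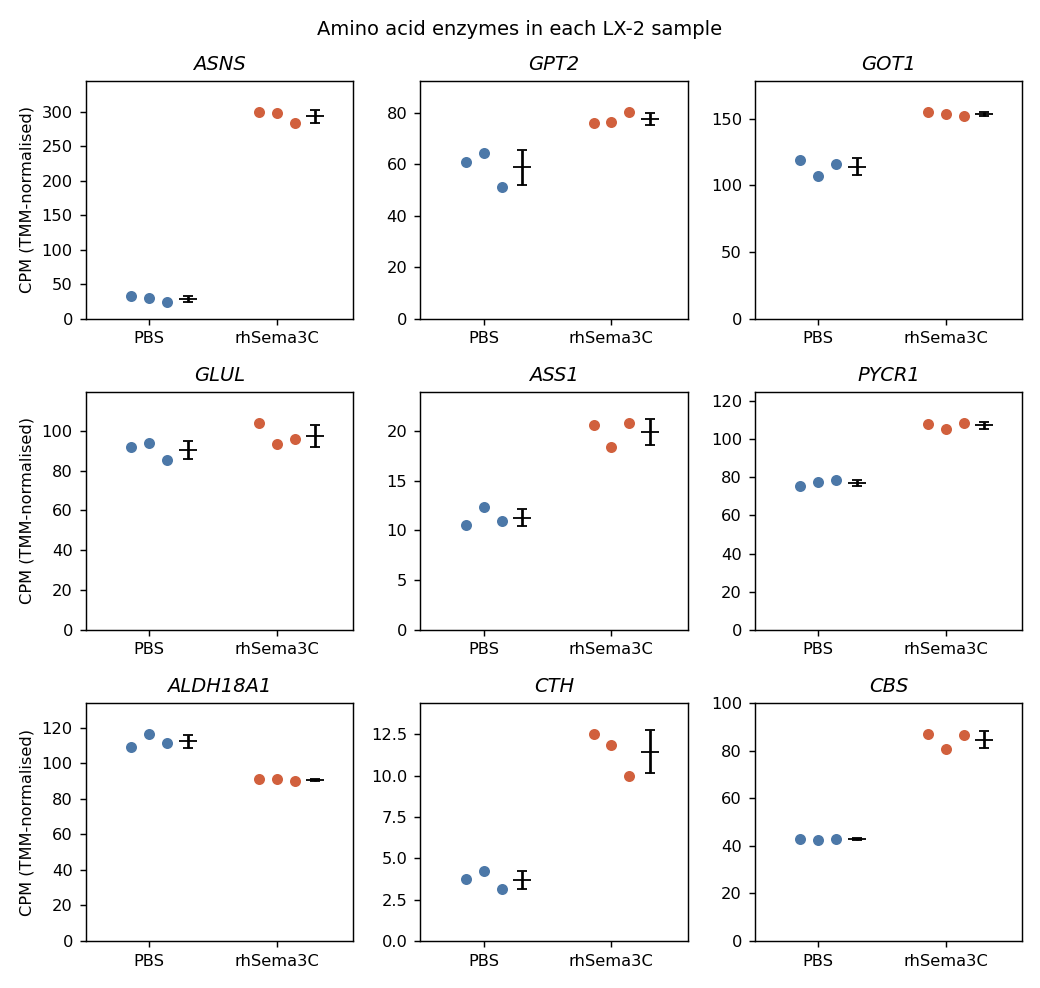
Expression of the 9 enzymes in each sample, in CPM scaled with TMM factors (each y axis starts at 0 and has its own range), with PBS in blue and rhSema3C in orange. Points are samples 1 to 3 from left to right, and the bar beside them is the mean with its SD (n = 3). ASNS and CTH stand furthest apart, GLUL overlaps, and ALDH18A1 is lower with rhSema3C.

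ASNS (ENSG00000070669), on the minus strand of chromosome 7 from 97851677 to 97872542 of GRCh38, had the largest difference of the 9. Its level was 32.6, 29.9 and 24.3 CPM in PBS replicates 1, 2 and 3, and 299.9, 298.2 and 283.3 CPM in the rhSema3C replicates. All rhSema3C samples were far above all PBS samples, and the relative spread was larger in PBS (CV 14.7%) than in rhSema3C (CV 3.11%). The difference was 10.1-fold, a log2FC of 3.34 (standard error 0.09), rank 8 from the top of the 14178 genes tested. The unnamed gene AC079781 lies on the same strand and spans 99.9% of ASNS. It had 904, 751 and 694 counts in PBS and 2197, 2191 and 1942 in rhSema3C, against 1596 to 2790 and 23595 to 27265 for ASNS. With the counts of both genes summed, the log2FC was 3.01 (standard error 0.07).

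GOT1 (ENSG00000120053; chromosome 10, 99396870 to 99430624, minus strand) makes aspartate from oxaloacetate and glutamate in the cytosol. It had 118.6, 106.9 and 116.1 CPM in PBS and 154.9, 153.5 and 151.7 CPM in rhSema3C, so the lowest treated sample was above the highest control. The log2FC was 0.43 (standard error 0.05). GOT2, the mitochondrial enzyme of the same reaction, moved the other way. It fell from 346.2 ± 17.7 to 219.6 ± 7.52 CPM, with a log2FC of -0.66 (standard error 0.05, adjusted p = 6.0e-07). The ratio of the FPKM values of GOT1 and GOT2 was 0.501, 0.489 and 0.538 in PBS and 1.05, 1.09 and 1.10 in rhSema3C. The order of the pair depends on the length used, since the length behind the FPKM of GOT1 was 0.737 times the union of its GENCODE exons and that of GOT2 was 1.02 times. Per kilobase of the longest coding transcript, GOT2 stayed above GOT1 in both groups, with 140.6 against 39.0 CPM in PBS and 89.2 against 52.5 CPM in rhSema3C. The pair drew closer on both scales.

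**Figure D2:**
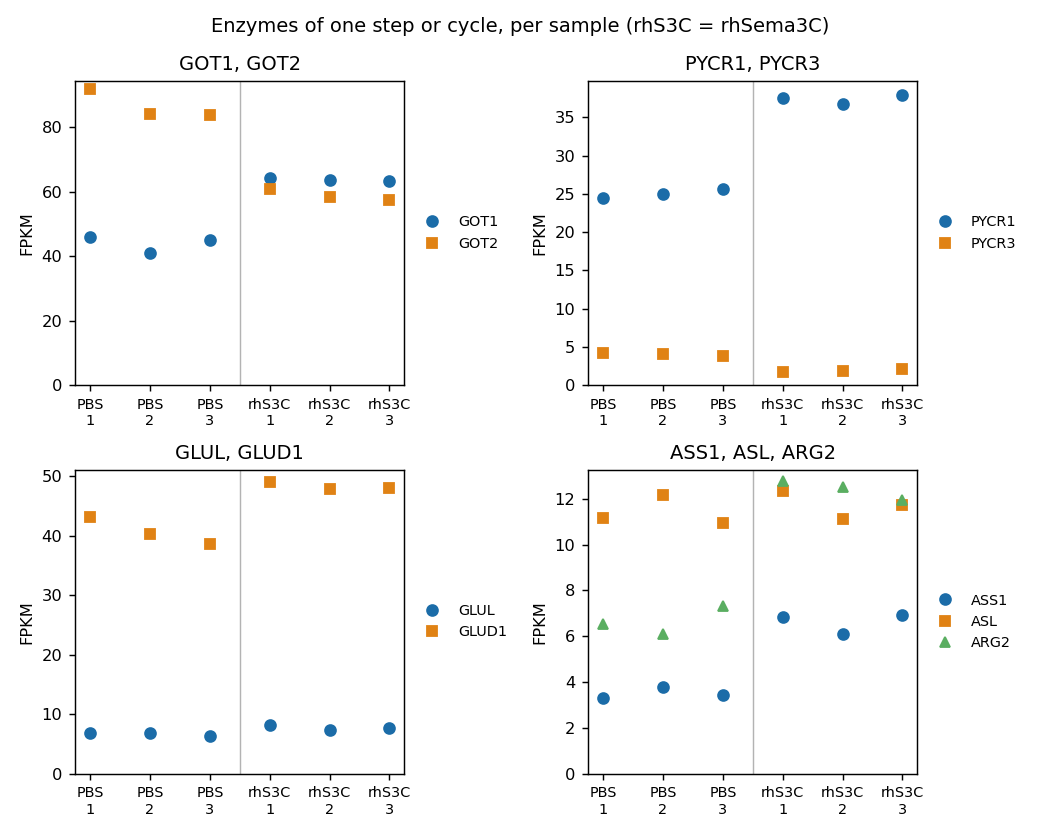
FPKM (the authors' unit, which scales fragments by length and library) of enzymes that share a reaction or a cycle, for each sample, with a grey line between the PBS and the rhSema3C samples. GOT1 and GOT2 draw closer and change order in FPKM, though not per kilobase of the longest coding transcript (89.2 CPM for GOT2 and 52.5 for GOT1 in rhSema3C), PYCR1 and PYCR3 move apart, and the points of ASL in the groups overlap.

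Among the other enzymes around asparagine and aspartate, 4 of 9 tested rose and 3 fell, with a median log2FC of 0.13. The rises were ADSS1, ADSS2, NIT2 and DDO, and the falls GOT2, ASRGL1 and ADSL. ASRGL1, an asparaginase-like hydrolase, fell by 0.70 on the log2 scale (adjusted p = 2.2e-05). ADSS2, which joins aspartate to IMP in purine synthesis, rose by 0.56 (adjusted p = 1.7e-05), and NIT2, an omega-amidase, rose by 0.46 (adjusted p = 0.00036). ASNSD1 did not pass the test (log2FC 0.07, adjusted p = 0.40), although it passed with 4 other settings, with values up to 0.29. ASNSD1 overlaps ASDURF and another gene on its own strand.

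GLUL (ENSG00000135821; chromosome 1, 182378098 to 182391792, minus strand) condenses glutamate and ammonia to glutamine. Its levels were 91.8, 93.9 and 85.4 CPM in PBS and 103.9, 93.2 and 95.8 CPM in rhSema3C, and the groups overlapped. The log2FC was 0.11 with a 95% interval from -0.01 to 0.23, and GLUL was the only one of the 9 that was not called. It was called without rhSema3C replicate 2 (log2FC 0.15) and with 5 other settings, up to 0.33 with TPM. GLS2, which acts on glutamine in the liver, had 3 to 17 counts per sample and was not tested. GLUD2, a relative of GLUD1, had 24 to 65 counts and was not tested either, and the asparaginase ASPG was not analysed here.

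GPT2 (ENSG00000166123; chromosome 16, 46884362 to 46931289, plus strand) is the mitochondrial alanine aminotransferase, which passes nitrogen between glutamate and alanine. It had 60.9, 64.4 and 51.3 CPM in PBS and 76.1, 76.3 and 80.4 CPM in rhSema3C, with no overlap. The log2FC was 0.40 (standard error 0.07). PBS replicate 3 was the lowest control. Leaving out single samples, the value lay between 0.31 and 0.47. GPT, the cytosolic enzyme, had only 7 to 36 counts per sample, and the FPKM of GPT2 was 58.9 to 280.5 times that of GPT. GLUD1, glutamate dehydrogenase, rose by 0.14 on the log2 scale (adjusted p = 0.020). Its call was lost without PBS replicate 3 (0.10), without rhSema3C replicate 1 (0.13) and with no filter on low genes (0.13). ABAT, the GABA aminotransferase, rose by 0.51 (adjusted p = 0.0022). Of the 5 other enzymes tested in this list 2 rose and none fell.

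ALDH18A1 (ENSG00000059573; chromosome 10, 95605941 to 95656711, minus strand) reduces glutamate to the precursor of proline and ornithine, and PYCR1 (ENSG00000183010; chromosome 17, 81932384 to 81941079, minus strand) then makes proline in mitochondria. These successive steps differed in direction. ALDH18A1 had 109.5, 116.5 and 111.4 CPM in PBS and 91.1, 91.3 and 90.1 CPM in rhSema3C. It was the only one of the 9 that was lower, with all treated samples below all controls and a log2FC of -0.31 (standard error 0.04). With values rescaled to TPM it was -0.08 and was not called. PYCR1 had 75.3, 77.4 and 78.6 CPM in PBS and 108.1, 105.2 and 108.5 CPM in rhSema3C, with no overlap and a log2FC of 0.48 (standard error 0.04). MYADML2, which overlaps PYCR1 on the same strand, had 3 to 16 counts. The FPKM of PYCR1 over that of ALDH18A1 was 0.893 ± 0.0265 in PBS and 1.54 ± 0.0337 in rhSema3C.

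PYCR3, a cytosolic relative of PYCR1, did not share its direction. It fell from 17.0 ± 0.938 to 7.43 ± 0.818 CPM, and its log2FC was -1.20 (standard error 0.11, adjusted p = 2.8e-06). PYCR1 had 6.21 times the FPKM of PYCR3 in PBS and 19.9 times in rhSema3C. Of the 5 other proline and ornithine enzymes tested, 3 fell and none rose. Besides PYCR3 these were ALDH4A1, the last enzyme of proline breakdown (log2FC -0.55, adjusted p = 2.9e-05), and PEPD, which frees proline from dipeptides (-0.53, adjusted p = 3.7e-06). OAT, which links ornithine to the same intermediate, was not called (0.05, adjusted p = 0.40) but passed under 5 other settings. PRODH, the first enzyme of proline breakdown, was too low to be tested, with 20, 33 and 18 counts in PBS and 81, 109 and 116 in rhSema3C.

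ASS1 (ENSG00000130707; chromosome 9, 130444961 to 130501274, plus strand) joins citrulline and aspartate on the way to arginine. It had 10.6, 12.3 and 11.0 CPM in PBS and 20.6, 18.4 and 20.8 CPM in rhSema3C, with no overlap and a log2FC of 0.82 (standard error 0.10). ASL, the enzyme of the next step, had 73.6 ± 4.66 and 70.3 ± 3.74 CPM. Its log2FC was -0.07 (adjusted p = 0.35), and its sign turned under 5 settings. The FPKM of ASS1 over that of ASL was 0.295, 0.312 and 0.313 in PBS and 0.554, 0.55 and 0.593 in rhSema3C, so ASS1 was the lower of the pair in every sample. ARG2, the mitochondrial arginase, rose from 16.2 ± 1.42 to 28.2 ± 1.05 CPM, and its log2FC was 0.80 (standard error 0.08, adjusted p = 9.4e-06). ARG1, the liver arginase, had at most 6 counts in any sample. CPS1, the first enzyme of the urea cycle, was present at 28.0 ± 1.10 CPM in PBS and rose by 0.25 (adjusted p = 0.0067). DDAH1 and DDAH2, which break down methylated arginine, fell by 0.57 and 0.43 on the log2 scale (adjusted p = 4.3e-05 and 0.00039). NOS3 was not called (-0.16, adjusted p = 0.28). Of the 9 other enzymes of arginine and the urea cycle tested, 2 rose and 3 fell, with a median of -0.16.

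CBS (ENSG00000160200; chromosome 21, 43053191 to 43076362, minus strand) makes cystathionine from serine and homocysteine. It had 42.9, 42.3 and 43.1 CPM in PBS, the tightest group of the 9 (CV 0.937%), and 87.0, 80.7 and 86.8 CPM in rhSema3C. The log2FC was 0.99 (standard error 0.05). CBSL, a near-identical copy on chromosome 21 from 6444869 to 6468040, took nearly as many counts, and 92.4% of the 100-base windows of the longest CBS coding transcript are found unchanged in a CBSL transcript. CBS held 53.0% to 56.0% of the summed counts in PBS and 54.1% to 56.8% in rhSema3C, so the split was alike in the groups and is uncertain. The 2 entries together had 78.7 ± 1.56 and 153.2 ± 4.09 CPM, a log2FC of 0.96 (standard error 0.04).

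CTH (ENSG00000116761; chromosome 1, 70411218 to 70439851, plus strand) cleaves cystathionine to cysteine. It was the least abundant of the 9, with 3.75, 4.21 and 3.13 CPM in PBS and 12.5, 11.9 and 10.0 CPM in rhSema3C, which rest on 206 to 321 and 833 to 1084 counts. The log2FC was 1.63 (standard error 0.15), the second largest of the 9 and rank 104 from the top. The enzymes upstream in the methionine cycle went different ways. MAT2A, which makes S-adenosylmethionine, fell from 374.7 ± 8.10 to 231.2 ± 3.67 CPM (log2FC -0.70, adjusted p = 9.5e-08), and AHCY, which makes homocysteine, fell from 375.7 ± 13.1 to 275.9 ± 9.59 CPM (-0.45, adjusted p = 6.1e-06). MAT1A, the liver form, had 6.81 ± 0.469 CPM in PBS and fell by 1.03 on the log2 scale (adjusted p = 0.00067). MTR, which methylates homocysteine back to methionine, and MTRR, which keeps MTR active, rose by 0.51 and 0.53 (adjusted p = 4.8e-05 and 3.0e-06). Counting CBSL, whose rise may not be separate from that of CBS, 5 of the 9 other enzymes tested here rose and 3 fell.

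**Figure D3:**
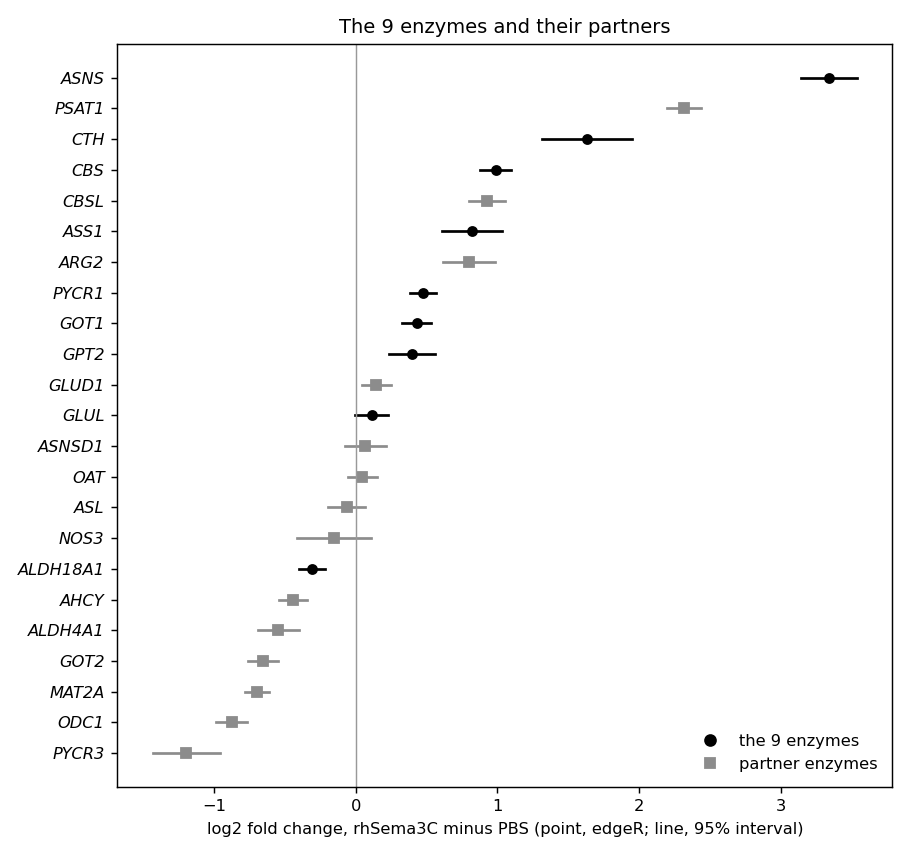
Log2 fold changes of rhSema3C minus PBS from edgeR, with 95% intervals, for the 9 enzymes (black circles, a description) and their tested partners (grey squares), ordered by value. ASNS at 3.34 is the highest and PYCR3 at -1.20 the lowest, and GOT1 and GOT2, like PYCR1 and PYCR3, lie on opposite sides of 0.

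Levels were compared between the 9 enzymes per length. In PBS the mean FPKM was 44.1 ± 2.61 for GOT1, 28.0 ± 0.764 for ALDH18A1, 25.0 ± 0.559 for PYCR1, 8.67 ± 0.967 for GPT2, 6.70 ± 0.296 for GLUL, 5.90 ± 0.0852 for CBS, 5.52 ± 0.808 for ASNS, 3.50 ± 0.264 for ASS1 and 1.43 ± 0.203 for CTH (SD, n = 3). The samples of CBS and ASNS overlapped, and those of all other neighbours in this order did not. In rhSema3C the order was GOT1 (63.7 ± 0.482), ASNS (60.4 ± 1.73), PYCR1 (37.4 ± 0.641), ALDH18A1 (24.3 ± 0.124), CBS (12.6 ± 0.531), GPT2 (12.3 ± 0.413), GLUL (7.78 ± 0.426), ASS1 (6.63 ± 0.453) and CTH (4.77 ± 0.527). There only CBS and GPT2 overlapped. ASNS thus moved from seventh to second place.

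The order depends on the length used. The length implied by count and FPKM was 1.02 to 1.03 times the union of all GENCODE exons for 6 of the 9, and 1.13, 0.737 and 1.43 times for ASNS, GOT1 and GLUL. It was 2.13 times the longest coding transcript for ASNS, 2.67 times for CBS and 2.74 times for GLUL. Per kilobase of the longest coding transcript, ASNS went from 12.3 to 124.7 CPM and stood first with rhSema3C, before PYCR1 (56.3) and GOT1 (52.5). On the same scale PYCR1 (40.5) and GOT1 (39.0) led in PBS, and GLUL had 19.2 and 20.7.

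The samples within a group differed without a shared order. PBS replicate 3 was the lowest control for 4 of the 9 enzymes, PBS replicate 2 the highest for 5, and rhSema3C replicate 1 the highest treated sample for 5. The CV in PBS ranged from 0.937% for CBS to 14.7% for ASNS, and in rhSema3C from 0.716% for ALDH18A1 to 11.4% for CTH.

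The genes whose pattern over the 6 samples was most like that of ASNS were IL24, ALDH1L2, DDIT4, NDRG1 and INHBE, by the root mean square difference of log2(CPM + 0.5) centred on the PBS mean. This difference was 0.42, 0.46, 0.53, 0.66 and 0.73 on the log2 scale. IL24 encodes a cytokine, ALDH1L2 a mitochondrial enzyme of folate metabolism, DDIT4 an inhibitor of mTORC1, NDRG1 a stress-responsive protein and INHBE an activin subunit. Their log2FCs were 2.92, 2.82, 2.62, 2.45 and 2.98, all below that of ASNS.

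Over all pathway lists, 103 other genes were written down, 96 were analysed and 78 passed the filter on low values. They are called enzymes here for short, but regulators such as OAZ1, OAZ2, AZIN1 and AZIN2 and the carrier SLC25A15 are among them. Of these 78, 29 rose and 23 fell (37.2% and 29.5%, beside 31.7% and 30.6% of all genes tested). More than a 2-fold difference was called in 8 of the 78, beside 5.37% of all genes tested. The rises include CBSL, whose split of counts with CBS is uncertain, so its rise may not be separate from that of CBS. The median log2FC of the 78 was 0.06, beside 0.02 over all genes. The share called, 66.7%, lies near the background of 62.3%. The split depended on the scaling, with 44 higher and 17 lower after rescaling to TPM. Among the other amidotransferases, which like ASNS take nitrogen from glutamine, 3 rose and 3 fell of 9. GFPT1, the entry enzyme of hexosamine synthesis, rose from 83.4 ± 5.26 to 166.1 ± 3.76 CPM (log2FC 0.99, adjusted p = 4.1e-08). PFAS and CTPS1, of purine and CTP synthesis, fell by 0.56 and 0.43 on the log2 scale (adjusted p = 1.2e-05 and 2.2e-05), and PPAT rose by 0.27 (adjusted p = 0.019). PPAT lost its call without PBS replicate 2 (0.24), without rhSema3C replicate 2 (0.18) and with no filter on low genes (0.26). ASL, AHCY, ADSS2, ASRGL1, DDAH1, DDAH2, GCLC, SQOR and ODC1 overlap other genes on their own strand, by 37 bases (DDAH2) to 95970 bases (DDAH1), which leaves their counts uncertain. ARG2, GLUD1, GOT2, MAT2A, MTRR and NOS3 are among those that overlap genes on the other strand, and reads of such pairs cannot be told apart unless the counting used strand.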

How the data were processed

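LX-2 RNA was sequenced in 3 rhSema3C and 3 PBS samples, grouped and numbered by the sample labels. The deposited table holds raw counts for every gene as whole numbers. The authors also gave FPKM values, scaled by length and library size. The paper's methods name Cufflinks and cuffmerge for differential expression. The aligner, counting tool, strand setting and genome build are not given in the sources used here. Coordinates lie on GRCh38.

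Genes averaging 0.5 FPKM or more were tested with edgeR's quasi-likelihood test on counts with TMM factors, adjusted by Benjamini-Hochberg over 14178 genes. The test was tried on simulated counts of 14178 genes, of which 200 were changed 2-fold. It recovered 178 of these and made 21 false calls. In the data 62.3% of the genes tested were called, so the simulation does not give the share of false calls there. Named were the 9 enzymes, their direct partners, and from each list the 2 largest called rises and falls that averaged 1 FPKM or more and whose groups did not overlap. The 5 genes most like ASNS were also named. Some partners are not reported here. ADSS1, ADSL, DDO, MTR, PEPD, SRM, SMS, AMD1, MTAP, AZIN1, AZIN2, OAZ1, AHCYL2 and BCAT1 lie outside this rule and were picked once their values had been seen. The members and lists were chosen with earlier results of these data known. Alternatives were DESeq2, limma on FPKM and TPM, other scalings and filters, a block for the replicate number and leaving out single samples. Summing CBS with CBSL and ASNS with AC079781 was chosen after seeing the data. Promoters came from RefSeq (GRCh38.p14), transcripts from GENCODE 29. The labels call the replicates biological but do not say whether they were separate cultures, so p-values measure the spread between these samples. The tools were edgeR 4.0.16, DESeq2 1.42.0 and limma 3.58.1 in R 4.3.3, with matplotlib 3.10.9.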

Additional observations from a re-analysis of the deposited data

How the results depend on the processing

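Each of the 9 enzymes kept the sign of its log2 fold change under every alternative that tested it (CTH was too low for a mean FPKM of at least 5). With TPM, 0 of the 9 were called lower by limma, and 8 were called in all. With TPM, 44 other enzymes were higher, and over all genes 6934 were higher and 2428 lower. With a mean FPKM of at least 5, fewer genes were tested, and 5232 were called, 2630 higher and 2602 lower, with 15 other enzymes lower. The sign of the log2 fold change turned for ASL with library size alone (0.0438), limma on log2(FPKM + 1) (0.0350), on log2(FPKM + 0.1) (0.0377), TPM (0.159) and a mean FPKM of at least 5 (0.0402), and with TPM also for NOS3 (0.0608) and GSS (0.0023). The cause was not tested. The median of all genes moved from 0.02 to 0.13 (library size alone), 0.12 (limma, log2(FPKM + 0.1)) and 0.23 (TPM), so values under about these sizes depend on the scaling. With each sample left out, 8 to 9 of the 9 enzymes, 45 to 52 of the other enzymes and 8060 to 8504 of all genes were called. Same-numbered samples did not deviate together (correlations of -0.08, -0.05 and -0.04). These values show no pairing by number, but a small shared effect could be missed. With the replicate block 8 of the 9, 46 of the others and 8341 of all genes were called, and SQOR and TST lost their calls. Sums of CBS with CBSL and of ASNS with AC079781, chosen after seeing the data, gave 0.96 and 3.01. GPT, GLS2, ARG1 and PRODH were under the minimum mean FPKM of 0.5 and were not tested.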

Other observations

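The polyamines are made from ornithine, next to the proline and arginine enzymes. Of the 11 polyamine genes tested, 5 rose and 4 fell. ODC1, which makes putrescine, fell from 244.6 ± 15.8 to 133.2 ± 1.5 CPM (mean ± SD of 3 samples; log2 fold change -0.88, edgeR adjusted p = 1.0e-07), and spermidine synthase SRM fell by 0.49 (adjusted p = 1.0e-05). OAZ2 and OAZ1, the antizymes that hold ODC1 activity down, fell by 0.67 and 0.42 on the log2 scale (adjusted p = 3.0e-07 and 2.6e-06). SAT1, which acetylates spermidine and spermine for breakdown or export, rose from 124.5 ± 2.15 to 279.0 ± 8.14 CPM (log2 fold change 1.16, adjusted p = 3.5e-09). SMOX, spermine oxidase, rose by 0.28 (adjusted p = 0.00050), and AZIN2, an antizyme inhibitor with a mean of 0.869 FPKM, by 0.88 (adjusted p = 6.3e-05). Spermine synthase SMS rose as well, by 0.12 (adjusted p = 0.021), and so did the antizyme inhibitor AZIN1, by 0.13 (adjusted p = 0.031). AMD1 and MTAP were not called.

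Of the 11 other aminotransferases tested, 5 rose and 2 fell. PSAT1, of serine synthesis, rose from 83.7 ± 5.04 to 417.0 ± 16.3 CPM (log2 fold change 2.32, adjusted p = 2.4e-10). KYAT3 rose by 1.12 (adjusted p = 5.5e-07) and overlaps RBMXL1 on its own strand. The branched-chain aminotransferases differed, as BCAT1 in the cytosol rose by 1.02 (adjusted p = 9.4e-08) and BCAT2 in mitochondria fell by 0.55 (adjusted p = 7.4e-05). Of the 8 genes of glutathione tested, 3 rose and 1 fell. CHAC1, which breaks down glutathione, rose from 18.4 ± 1.30 to 58.6 ± 2.81 CPM (log2 fold change 1.67, adjusted p = 1.4e-08), GCLC, of its synthesis, rose by 0.39 (adjusted p = 0.00056) but overlaps a gene on its own strand, and GSS fell by 0.23 (adjusted p = 0.00060). Of the 8 genes of cysteine and sulfide tested, 2 rose and 2 fell. CSAD, of taurine synthesis, rose by 0.87 (adjusted p = 0.00014) and SUOX, sulfite oxidase, fell by 0.42 (adjusted p = 0.0021). SQOR and TST, of sulfide oxidation, had log2 fold changes of 0.15 and -0.32 (adjusted p = 0.022 and 0.043). SQOR lost its call without PBS replicate 2 (0.12) or rhSema3C replicate 2 (0.13). TST lost it without PBS replicate 1 (-0.22), PBS replicate 3 (-0.36), rhSema3C replicate 2 (-0.35) or rhSema3C replicate 3 (-0.25), and under 10 settings in all. SUOX lost it with TPM (-0.17).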
